A study of Mus musculus with 10 samples.

Results

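Cathepsins are proteases of the lysosome, and transcripts of 10 of them were followed in 10 subcutaneous (s.c.) Panc02 tumors. The members were taken by gene symbol from a fixed list (Ctsa, Ctsb, Ctsc, Ctsd, Ctsh, Ctsk, Ctsl, Ctso, Ctsw and Ctsz), and 10 of 10 were found among the 37417 genes of the count table. Panc02 is a mouse pancreatic cancer cell line. The cells carried a doxycycline-inducible Cas9 and a guide RNA either that targets Cda, which encodes cytidine deaminase (sgCda, 5 tumors), or that targets nothing (sgNT, 5 tumors). All 10 tumors grew in C57BL/6J mice whose genotype is labelled as wild type, at 12 weeks of age, and were collected 16 days after injection. The guide was therefore present in the cancer cells only, while the RNA came from whole tumor tissue, which holds host cells of every kind. The labels do not say whether the injected cells were 1 clone or a selected population. Cells were injected into the right flank alone, so each tumor was taken as 1 mouse, and the p values below rest on the spread between tumors.

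Cathepsins are made as inactive precursors, carried to the lysosome largely by mannose 6-phosphate receptors, and activated there by acid and by other proteases. Most are cysteine proteases of the papain family (Ctsb, Ctsc, Ctsh, Ctsk, Ctsl, Ctso, Ctsw and Ctsz), while Ctsd is an aspartic protease and Ctsa a serine carboxypeptidase. In tumors, macrophages are known as rich sources of cathepsins, Ctsk is best known as the collagen-degrading protease of osteoclasts and is also made by fibroblasts, Ctsc activates the granule serine proteases of lymphocytes and myeloid cells, and Ctsw is a product of T and natural killer (NK) cells. Many lysosomal genes carry in their promoters the letters CACGTG, or the longer TCACGTGA, which are bound by TFEB and related factors.

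Promoter windows from RefSeq (build GRCm38.p6, 250 bases before to 50 after a start) were given for 7 of the 10 genes. CACGTG stood in the windows of 3 of these 7 genes (42.9%), Ctsa, Ctsd and Ctsl, against 8.09% of all 27025 genes with a window. TCACGTGA, which contains CACGTG, stood in 2 of the 7 (28.6%), Ctsa and Ctsd, against 1.12% of all genes. Both motifs read the same on either strand. The stretches around each match are printed to show how close the matches of 1 gene lie and which bases flank them. They are given 5′ to 3′ on the strand of the gene with CACGTG in capitals.
Ctsd, chr7:142388048-142388077, minus strand: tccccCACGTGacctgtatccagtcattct
Ctsd, chr7:142387908-142387937, minus strand: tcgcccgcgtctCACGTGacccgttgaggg
Ctsa, chr2:164833757-164833786, plus strand: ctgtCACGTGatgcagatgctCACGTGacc
Ctsl, chr13:64370741-64370770, minus strand: gcggcgttagaagcCACGTGctgatctaaa
In Ctsd the first base of the motif lay 245 and 98 bases before the RefSeq start. The GENCODE annotation places the first of these stretches 10 bases outside the gene and the other in the 5′ part of its first exon, in a UTR. In Ctsa a pair of matches spanned the start, from position -12 and from position 6, and both overlapped UTR exons of other transcripts of the gene. In Ctsl the match began 236 bases before the start and overlapped 1 exon of another transcript. The windows of Ctsc, Ctsk, Ctso and Ctsz and a further window of Ctsa held no match, which says only that these letters were not in those windows. A match is a run of letters, and no binding was measured.

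Depth ran from 28051907 to 39484964 assigned counts per tumor, and the floor of 3 counts was worth 0.0760 to 0.107 CPM. CPM here means counts per 1000000 of a library size scaled by edgeR's trimmed mean of M values (TMM). Cda itself was at 10.1, 11.7, 12.8, 14.7 and 11.1 CPM in sgNT tumors and at 8.34, 8.43, 12.1, 7.47 and 12.5 CPM in sgCda tumors, so the groups overlapped and the transcript did not separate the labels. Editing by Cas9 need not lower a transcript, so this is no check of the protein. The log2 fold change of Cda, sgCda over sgNT, was -0.30 (SE 0.17, 95% interval -0.67 to 0.064, edgeR unadjusted p = 0.0964). It stayed below 0 in the 18 alternatives described below (-0.41 to -0.22). The paper also found Cda transcript in endothelial cells and fibroblasts sorted from such tumors, and their part in these levels was not tested. Macrophage markers were high in all 10 tumors (summed level of 8 genes, 2390 to 3567 CPM), with none of the 8 at 0. Several libraries stood apart from the rest. The summed level of 4 skeletal muscle markers ran from 0.475 to 1478 CPM and was highest in sgCda replicate 3. The same tumor had the highest sum of T and NK cell markers (614.5 CPM, other tumors 187.7 to 404.9). In sgCda replicate 4 the macrophage sum was the lowest of the 10 (2390 CPM) and the share of reads outside annotated genes the highest (18.4%, other tumors 10.3% to 14.9%). For several fold changes, spreads and ratios that moved without these tumors, the values without them are also given.

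Expression of the 10 cathepsins did not separate the 2 groups. With edgeR's quasi-likelihood test and Benjamini-Hochberg adjustment over all 15299 genes tested, 0 of 10 had an adjusted p under 0.05, where 0% of all genes tested did. At an unadjusted p under 0.05 the count was 0 of 10, against 2.50% of all genes, and 0 of 10 had groups that did not overlap in CPM, against 0.601% of all genes. DESeq2 and limma-voom each gave 0 of 10 at the adjusted and at the unadjusted threshold. All 10 passed the filter on low counts. The log2 fold changes, sgCda over sgNT, lay between -0.17 (Ctsk) and 0.15 (Ctsw), with 7 above and 3 below 0, and their median was 0.013, beside 0.0078 for all genes tested, of which 52.9% were above 0. The adjusted p was 0.9996 for each of the 10. Without sgCda replicates 3 and 4 together, again 0 of 10 passed either threshold.

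Summed over the 10 genes, cathepsins took 0.393% ± 0.0379 (SD, n = 5) of assigned counts in sgNT and 0.400% ± 0.0662 (SD, n = 5) in sgCda. The lowest and the highest share were both in sgCda tumors, 0.311% in replicate 4 and 0.488% in replicate 3, with sgNT tumors between 0.342% and 0.440%. The makeup of the sum was steady for Ctsb, which held 29.6% to 31.0% of cathepsin counts in every tumor. Ctsd held 19.2% to 27.9% and Ctsc 14.1% to 26.4%, and sgCda replicate 3 had the lowest Ctsd share and the highest Ctsc share of the 10.

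**Figure D1:**
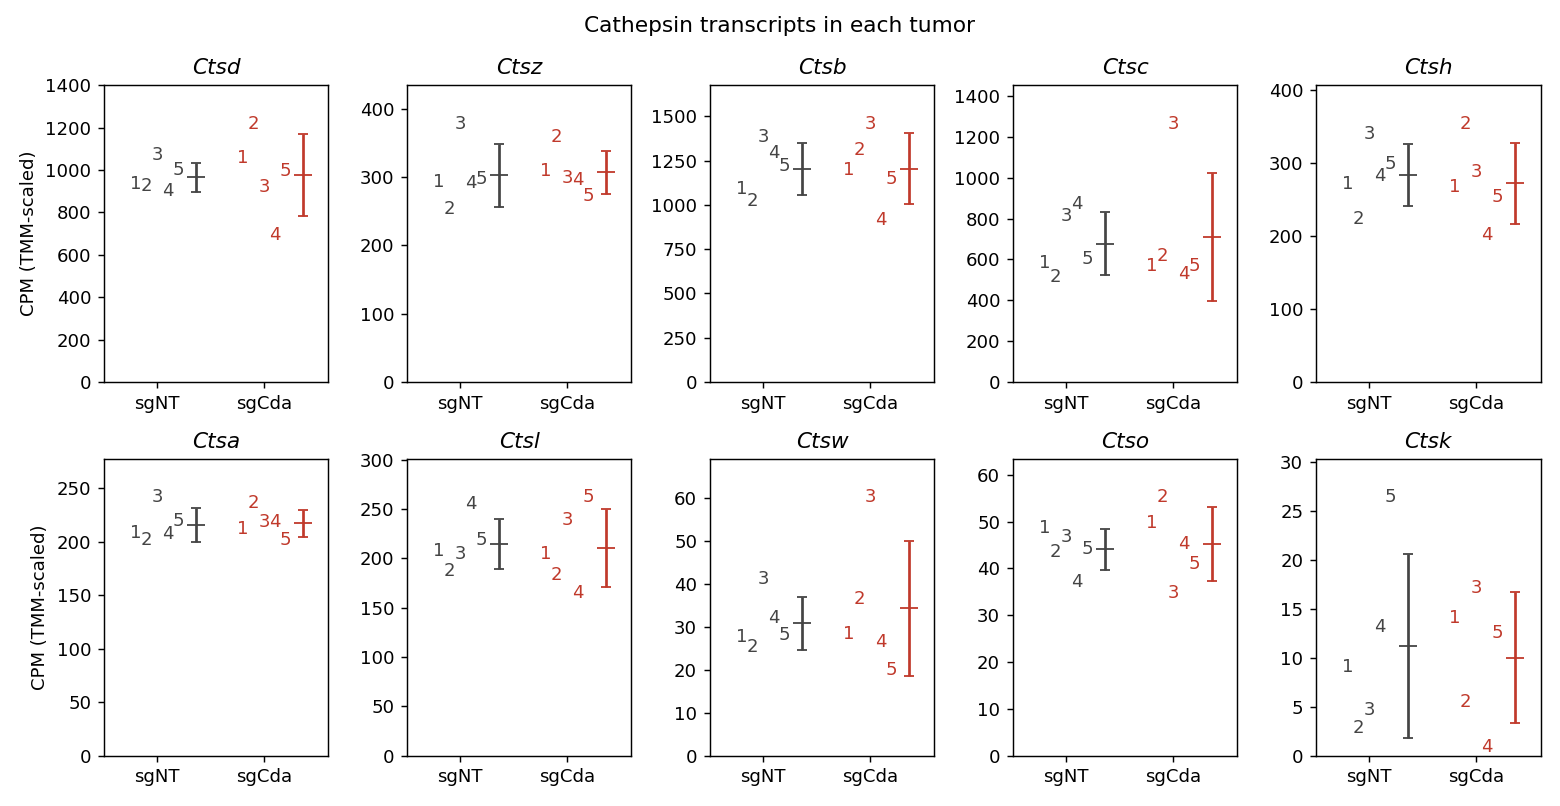
Level of each cathepsin (CPM on TMM-scaled libraries, linear axis from 0) in every tumor; each digit is 1 tumor, shown by its replicate number, and the bars are mean ± SD of 5 tumors. The 2 groups overlap in all 10 panels, and sgCda replicate 3 sits apart for Ctsc at 1265 CPM.

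Levels can be compared between genes only per length, and they spanned more than 1 order of magnitude. Per kilobase of merged exons, mean levels over the 10 tumors were 413 CPM (SD 58.3) for Ctsd, 212 (SD 25.9) for Ctsz, 199 (SD 27.6) for Ctsb, 119 (SD 40.2) for Ctsc, 61.6 (SD 10.4) for Ctsh, 45.9 (SD 2.84) for Ctsa, 32.8 (SD 4.84) for Ctsl, 17.3 (SD 6.02) for Ctsw, 8.71 (SD 1.18) for Ctso and 7.01 (SD 5.09) for Ctsk. Within a tumor each gene was above its neighbor in this order in 10 of 10 tumors, except that Ctsz was above Ctsb in 8 of 10, Ctsh above Ctsa in 9 of 10 and Ctso above Ctsk in 6 of 10. Ranges over tumors overlapped for 6 of the 9 neighboring pairs and were apart for Ctsd and Ctsz, Ctsc and Ctsh, and Ctsa and Ctsl. The order in the middle rests on the length used. Per kilobase of the longest transcript the order began with Ctsd at 457 CPM, Ctsb at 254, Ctsc at 215 and Ctsz at 212, with Ctsh at 171.5, while the lowest 5 genes kept their order. Ctss, a macrophage and antigen-presenting cell cathepsin outside the 10, was above all of them by both lengths (1063 CPM per kilobase of merged exons, SD 148.5).

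**Figure D2:**
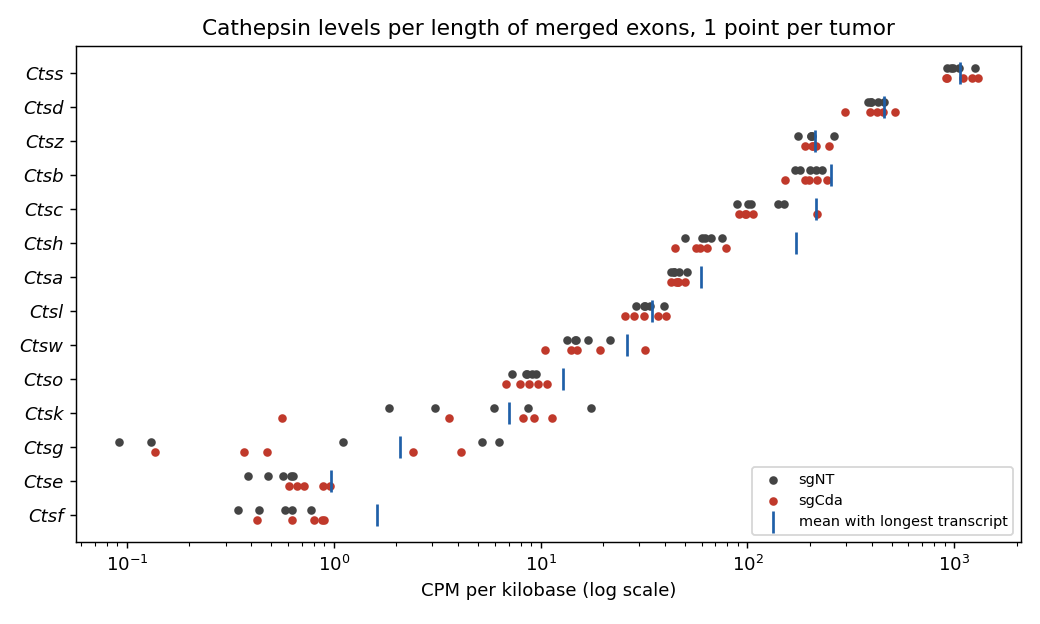
Level per kilobase (CPM per kilobase of merged exons, log axis) of the 10 cathepsins and 4 others; points are single tumors (grey sgNT, red sgCda) and blue ticks the mean of 10 tumors with the longest transcript as length. Ctsd leads the 10 genes by both lengths, and Ctsk spreads from 0.562 to 17.4.

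Among the endopeptidases, which cut within protein chains, Ctsd (ENSMUSG00000007891, chr7:142375911-142388038) encodes the aspartic protease that starts the breakdown of many lysosomal proteins. It was at 933, 926, 1071, 899.7 and 1001 CPM in sgNT tumors and at 1057, 1219, 920.0, 693 and 994 CPM in sgCda tumors. The sgCda values enclosed those of sgNT, with the highest (replicate 2) and the lowest (replicate 4) of the 10. The fold change was 0.016 on the log2 scale (SE 0.13, 95% interval -0.27 to 0.31), so a rise of more than 23.6% or a fall of more than 17.3% lay outside the interval.

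Ctsb (ENSMUSG00000021939, chr14:63122462-63145923) encodes a cysteine protease that cuts within chains and from their ends and can also be secreted. It was at 1087, 1023, 1383, 1294 and 1220 CPM in sgNT tumors and at 1198, 1308, 1458, 913 and 1143 CPM in sgCda tumors. The highest value was in sgCda replicate 3 and the lowest in sgCda replicate 4, and the fold change was 0.0036 on the log2 scale (SE 0.13, 95% interval -0.28 to 0.29). Fdft1, on the other strand, overlaps 774 bases of Ctsb exons, and since the strand setting of the counting is not known, its reads may enter or remove counts.

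Ctsl (ENSMUSG00000021477, chr13:64359337-64370890), a potent endopeptidase that processes antigens and other proteases, was at 208, 187, 205, 255 and 219 CPM in sgNT tumors. In sgCda tumors it was at 204, 183, 239, 165 and 262 CPM. The groups overlapped almost wholly (log2 fold change -0.028, SE 0.13, 95% interval -0.31 to 0.25). Its relatives of the placental cluster on the same chromosome (Ctsj, Ctsm, Ctsq, Ctsr, Cts3, Cts6, Cts7, Cts8 and Ctsll3) stayed below the filter, with at most 15 counts in any tumor.

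Among the cathepsins that trim chains from an end, Ctsh (ENSMUSG00000032359, chr9:90054152-90076089), an aminopeptidase, was at 270.4, 223, 339.8, 281 and 298 CPM in sgNT tumors. In sgCda tumors it was at 266, 353, 287, 200.4 and 253 CPM, so that both extremes were again sgCda tumors, replicates 2 and 4. The fold change was -0.056 on the log2 scale (SE 0.15, 95% interval -0.38 to 0.27). Ctsz (ENSMUSG00000016256, chr2:174427493-174439039), a carboxypeptidase of immune cells, was at 294, 253, 379, 292 and 297 CPM in sgNT and at 309, 358, 299, 296 and 272 CPM in sgCda tumors. Its extremes were both sgNT tumors, replicates 3 and 2, and its fold change was 0.020 on the log2 scale (SE 0.11, 95% interval -0.22 to 0.26).

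Ctsa (ENSMUSG00000017760, chr2:164832873-164841032) encodes the carboxypeptidase that holds the lysosomal enzymes neuraminidase 1 (Neu1) and beta-galactosidase (Glb1) in a protective complex. It was the steadiest of the 10 genes. Its levels were 208, 202, 242, 207 and 220 CPM in sgNT and 212, 236, 219, 218 and 202 CPM in sgCda tumors, a ratio of 1.20 between the highest and the lowest tumor. The SD of its log2 CPM over the 10 tumors was 0.088, beside a median of 0.203 for all genes tested. The interval of its fold change was the narrowest of the 10 (0.0096 on the log2 scale, SE 0.066, 95% interval -0.14 to 0.16), so a rise of more than 11.4% or a fall of more than 9.02% lay outside it. Neurl2 and Pltp, on the other strand, overlap 819 bases of its exons. Neu1, picked with its values known, ran from 31.9 to 38.9 CPM, and the SD of the log2 ratio of Ctsa to Neu1 was 0.075 (10 tumors). Glb1, picked likewise, ran from 50.5 to 60.5 CPM, and its ratio to Ctsa had an SD of 0.120, larger than that of Glb1 (0.087) or of Ctsa (0.088) alone, so this ratio was not kept.

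Ctso (ENSMUSG00000028015, chr3:81932601-81956725), a little-studied cysteine protease, was at 48.7, 43.5, 46.7, 37.1 and 44.3 CPM in sgNT and at 49.8, 55.2, 34.9, 45.3 and 40.8 CPM in sgCda tumors. The groups overlapped (log2 fold change 0.037, SE 0.12, 95% interval -0.23 to 0.30). It was the single member with its lowest value in sgCda replicate 3, where Ctsb, Ctsc and Ctsw were at their highest.

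Ctsc (ENSMUSG00000030560, chr7:88278085-88310888) encodes dipeptidyl peptidase 1, which removes dipeptides and so activates granzymes and neutrophil serine proteases. It was at 582, 516, 815, 870.3 and 604 CPM in sgNT tumors and at 569, 615, 1265, 527 and 567 CPM in sgCda tumors. In sgCda it was at 1265 CPM in replicate 3 and between 527 and 615 CPM in the other 4, a range within that of sgNT. The fold change was 0.065 on the log2 scale (SE 0.25, 95% interval -0.49 to 0.62) and turned to -0.25 without sgCda replicate 3 (edgeR unadjusted p = 0.130). Without sgNT replicate 2 it was also below 0, at -0.020 (edgeR unadjusted p = 0.943). The sign therefore depended on single tumors, and none of these values passed the test.

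Ctsw (ENSMUSG00000024910, chr19:5465043-5468507), the cathepsin of cytotoxic lymphocytes, was at 27.7, 25.2, 41.1, 32.1 and 28.1 CPM in sgNT and at 28.4, 36.5, 60.2, 26.6 and 19.8 CPM in sgCda tumors. The highest and the lowest values were both in sgCda tumors, replicates 3 and 5. The fold change of 0.15 on the log2 scale (SE 0.26, 95% interval -0.42 to 0.73) turned to -0.15 without sgCda replicate 3. In this tumor T and NK cell markers were high as stated above, and their part in the Ctsc and Ctsw levels was not tested. In bulk tissue, fewer cells of a type and less RNA per cell cannot be told apart.

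Ctsk (ENSMUSG00000028111, chr3:95499256-95509362), the collagen-degrading member, was the most variable. It was at 9.0, 2.81, 4.68, 13.1 and 26.4 CPM in sgNT and at 14.1, 5.44, 17.1, 0.850 and 12.5 CPM in sgCda tumors. The highest tumor, sgNT replicate 5, had 31.0 times the level of the lowest, sgCda replicate 4, which rested on 24 counts. The SD of its log2 CPM over tumors was 1.44, and its fold change was -0.17 (SE 0.70, 95% interval -1.71 to 1.37), so these data leave room for large differences in either direction. Without sgCda replicate 4 the fold change was above 0, as it was without sgNT replicate 5 (0.43).

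**Figure D3:**
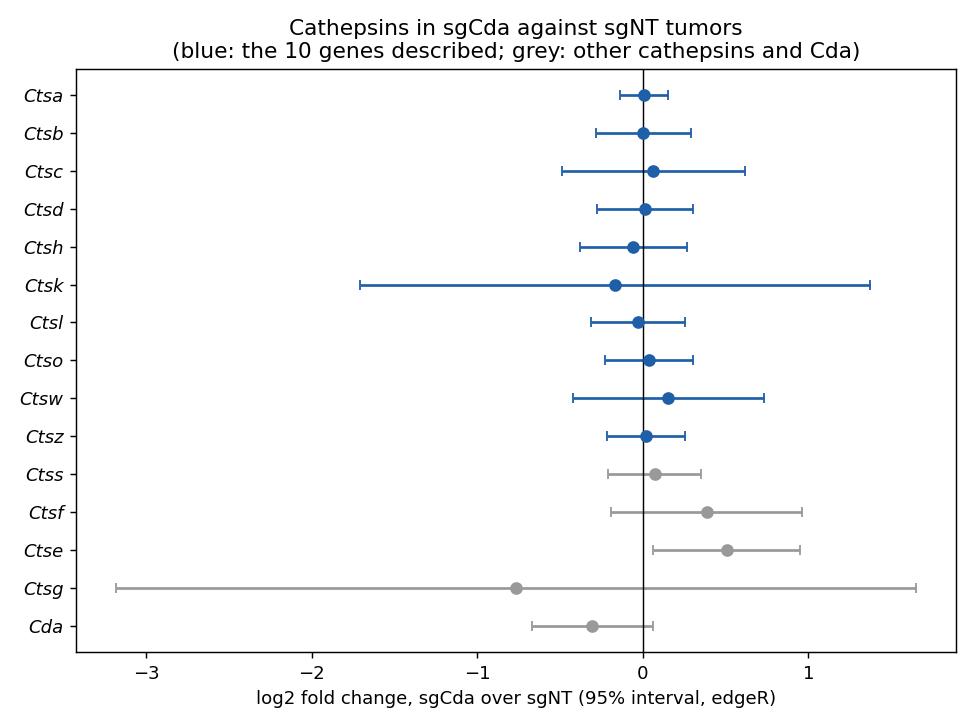
Log2 fold change, sgCda over sgNT (points, edgeR), with 95% intervals (bars) for the 10 cathepsins (blue), the 4 other cathepsins that passed the filter and Cda (grey). All 10 blue intervals include 0, from the narrowest for Ctsa to the widest for Ctsk.

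The cathepsins fell into patterns across tumors that crossed the groups. Likeness is given as the SD, over the 10 tumors, of the log2 ratio of a pair of genes, where a small value means that the genes kept their ratio. Among the 45 pairs of members the smallest values were 0.093 for Ctsa and Ctsz, 0.13 for Ctsb and Ctsh and 0.14 for Ctsd and Ctsh, and the largest was 1.51 for Ctsk and Ctso. The value for Ctsa and Ctsz was above the SD of Ctsa alone (0.088), so that ratio was no steadier than Ctsa itself. Those for Ctsb and Ctsh and for Ctsd and Ctsh were below the SDs of Ctsb (0.206), Ctsd (0.213) and Ctsh (0.249). Ctsb, Ctsd and Ctsh were all at their lowest in sgCda replicate 4. Without that tumor their SDs were 0.165, 0.141 and 0.204, while the pair values were taken with all 10 tumors only. The value for Ctsd and Ctsh (0.14) was no smaller than this SD of Ctsd. Whether that pair kept its ratio apart from sgCda replicate 4 was therefore not tested. The points share library, depth and tissue makeup, and these values are descriptions with no test.

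Of 11 sums of cell type markers, the macrophage sum kept the steadiest ratio to Ctsh (SD 0.093), Ctsz (0.108), Ctsb (0.129), Ctsa (0.141), Ctsd (0.159) and Ctso (0.237). For Ctsa and Ctso this value was larger than the SD of the gene itself (0.088 and 0.198), so the ratio was no steadier than the gene. The macrophage sum also varied least of the 11 sums (SD of its log2 level 0.200, next the epithelial sum at 0.278). A steady sum tends to give a small ratio SD to any steady gene, which limits what this ranking shows. The T and NK cell sum was the steadiest for Ctsw (0.137) and Ctsc (0.268), the epithelial sum for Ctsl (0.187) and the osteoclast sum for Ctsk (1.01). Without sgCda replicate 3 the macrophage sum became the steadiest for Ctsc (0.232, beside an SD of 0.265 of the gene itself), while the T and NK cell sum stayed so for Ctsw (0.140). Leaving out sgCda replicate 4 instead, the value for Ctsw was 0.068. The values for Ctsd and the macrophage sum (0.152) and for Ctsl and the epithelial sum (0.193) were then above the SDs of Ctsd (0.141) and Ctsl (0.185) themselves. With both tumors left out, Ctsd was at 0.136 beside an SD of 0.143, and Ctsl at 0.198 beside 0.189. The lowest macrophage sum and the lowest Ctsb, Ctsd, Ctsh, Ctsk and Ctsl levels were in the same tumor, sgCda replicate 4. What part macrophage content had in these levels was not tested.

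Over 10328 genes with a mean log2 CPM of at least 3, the genes with the steadiest ratio were sought for the 4 most variable members. For Ctsh they were C1qb (SD 0.050), a complement component of macrophages, Crlf2 (0.069) and Tnfaip8l2 (0.079). C1qb is itself among the genes of the macrophage sum, so its likeness to Ctsh is not separate from that of the sum. C1qb was at 1081, 874, 1280, 1005 and 1095 CPM in sgNT and at 1029, 1336, 1104, 769.6 and 921 CPM in sgCda tumors, lowest where Ctsh was lowest and highest where Ctsh was highest. For Ctsw they were Gimap4 (0.063), a lymphocyte GTPase, Cd27 (0.090), a T and NK cell receptor, and Prkcq (0.093), a kinase of T cell receptor signaling. All 3 were highest in sgCda replicate 3 and lowest in sgCda replicate 5, as Ctsw was. Without sgCda replicate 3 the SD of Ctsw fell from 0.44 to 0.305 and that of its ratio to Gimap4 was 0.0592.

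For Ctsc the closest genes were Dpep2 (SD 0.069), a dipeptidase, Icos (0.072), a costimulatory receptor of activated T cells, and C5ar1 (0.076), the complement C5a receptor of myeloid cells. C5ar1 was at 55.2 CPM and Icos at 41.1 CPM in sgCda replicate 3, above all other tumors (at most 36.5 and 28.3 CPM, both in sgNT replicate 4). The 3 genes closest to Ctsc were thus known from lymphoid and from myeloid cells. They were picked as the closest of 10328 genes, so the value of the T and NK cell marker sum (0.268) cannot be set against theirs. Without sgCda replicate 3 the SD of Ctsc fell from 0.41 to 0.265, and its ratios to Dpep2, Icos and C5ar1 had SDs of 0.0705, 0.0767 and 0.0651 (9 tumors).

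For Ctsk the closest genes were Col5a2 (SD 0.20), a fibrillar collagen chain, Cxcl12 (0.20), a stromal chemokine, and Postn (0.21), a matrix protein of activated fibroblasts. Col5a2 was at 56.3, 18.9, 26.6, 78.4 and 121.5 CPM in sgNT and at 81.4, 31.8, 100.6, 3.75 and 65.1 CPM in sgCda tumors, so it followed Ctsk down to sgCda replicate 4. Col1a2, chosen with its values known, ran from 23.0 CPM in that tumor to 1264 CPM in sgNT replicate 5 (SD of the ratio 0.40). The list of 6 fibroblast markers was split. Dcn, Lum, Pdgfra and Pdgfrb were at their lowest in sgCda replicate 3 (614, 89.5, 41.0 and 116.6 CPM), the tumor with the second highest Ctsk, and in sgCda replicate 4, where Ctsk was lowest, Dcn was at 2422 CPM, its highest. Fap and Thy1 went the other way, highest in sgCda replicate 3 (4.42 and 222.5 CPM) and lowest in sgCda replicate 4 (1.38 and 66.0 CPM). Thy1 was also high in sgNT replicate 3 (128.2 CPM), where Ctsk was at 4.68 CPM. The T and NK cell sum was likewise highest in sgCda replicate 3 and next in sgNT replicate 3 (614.5 and 404.9 CPM). It was lowest in sgCda replicates 5 and 4 (187.7 and 199.5 CPM), where Thy1 was lowest too. The ranks were less alike in sgNT replicate 5 (Thy1 5 of 10, the sum 8 of 10). What part T and NK cells had in the Thy1 level was not tested. The SD of the Ctsk ratio was 1.81 for Dcn, 1.6 for Lum, 1.80 for Pdgfra and 1.6 for Pdgfrb, above the 1.44 of Ctsk alone, and 0.991 for Fap and 1.26 for Thy1, below it. This split rested in part on sgCda replicates 3 and 4. Leaving out both, the SD of Ctsk alone was 1.03 (8 tumors). The ratio SDs were then 1.18 for Dcn, 1.21 for Pdgfra, 1.05 for Pdgfrb and 1.04 for Thy1, above it, and 1.01 for Lum and 0.665 for Fap, below it.

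Of the 11 marker sums, that of 5 osteoclast markers kept the steadiest ratio to Ctsk (SD 1.01, and 0.557 without sgCda replicate 4), and the fibroblast sum was at 1.71. The osteoclast sum was low, at 2.40 to 7.63 CPM in sgNT and 3.19 to 6.36 CPM in sgCda tumors. Atp6v0d2 had 25 to 241 counts per tumor, Ocstamp 16 to 116 and Dcstamp 12 to 44, while Calcr was at 0 or 1 count and Oscar at 0 to 8. What part osteoclasts or fibroblasts had in the Ctsk level was not tested. Without sgCda replicate 4 the SD of Ctsk fell to 1.01 and the ratio of its highest to its lowest tumor to 9.38, while the SDs of its ratio to Col5a2, Cxcl12 and Postn were 0.150, 0.213 and 0.216 (9 tumors).

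**Figure D4:**
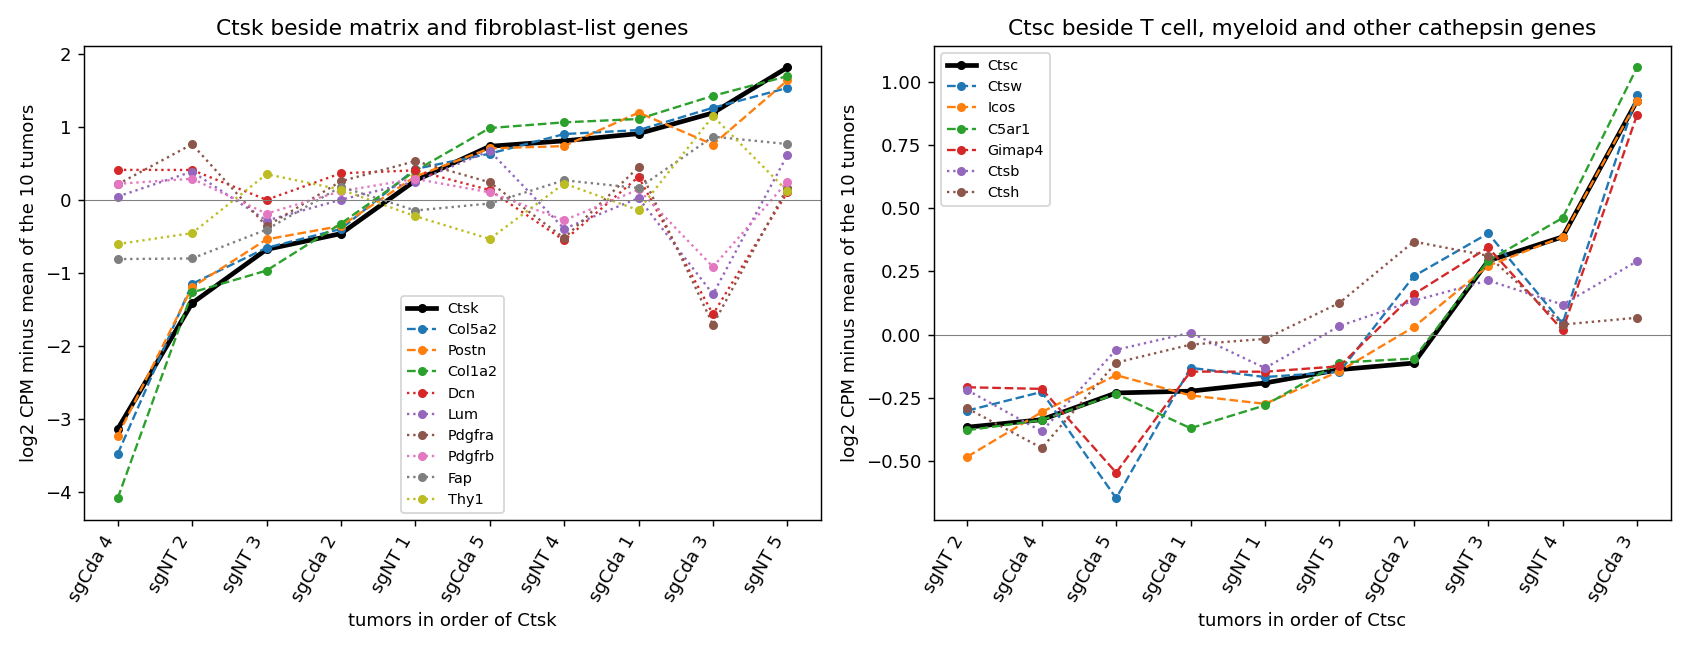
Level of single genes in each tumor (log2 CPM minus the mean of the 10 tumors), with tumors in order of Ctsk (left) and of Ctsc (right); the black line is that cathepsin, dashed lines are genes named beside it, and dotted lines are the 6 fibroblast markers (left) and Ctsb and Ctsh (right). Col5a2, Postn and Col1a2 follow Ctsk over its 31.0-fold range, and Fap moves with it over a smaller range. Thy1 is highest in sgCda replicate 3 and lowest in sgCda replicate 4, but is also high in sgNT replicate 3, where Ctsk is low. Dcn, Lum, Pdgfra and Pdgfrb are lowest in sgCda replicate 3, and Ctsc, Icos and C5ar1 peak together in that tumor.

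The wider pathway was described with 75 genes in 7 lists, of which 61 passed the filter. None of the 61 had an adjusted p under 0.05 (edgeR, DESeq2 and limma-voom), where 0% of all genes tested did in edgeR. Of their log2 fold changes 26 were above and 35 below 0 (median -0.018), where 52.9% of all genes tested were above 0. None had groups that did not overlap, against 0.601% of all genes. In edgeR 1 had an unadjusted p under 0.05, against 2.50% of all genes. That 1 gene was Ctse, an aspartic protease of the endosome that belongs to the cathepsins outside the 10. It was at 1.52, 1.80, 2.02, 1.23 and 1.96 CPM in sgNT tumors and at 3.03, 2.80, 2.10, 2.27 and 1.93 CPM in sgCda tumors, above the sgNT mean in 5 of 5 but with overlap of the groups. Its log2 fold change was 0.51 (SE 0.20, edgeR unadjusted p = 0.0285, adjusted p = 0.9996), and without single tumors it ran from 0.41 (unadjusted p = 0.0714, without sgNT replicate 4) to 0.58.

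The other cathepsins that passed the filter were Ctss, Ctsf and Ctsg. Ctss was at 1254 to 1717 CPM in sgNT and at 1235 to 1759 CPM in sgCda tumors (log2 fold change 0.072, SE 0.13). Ctsf, a papain-family protease, was at 1.73 to 3.89 CPM and at 2.15 to 4.50 CPM (0.39, SE 0.26). Ctsg, a granule serine protease that Ctsc activates, was at 0.0948 to 6.53 CPM in sgNT and at 0.142 to 4.28 CPM in sgCda tumors (-0.77, SE 1.10), with 3 to 213 counts. Single tumors moved this value from -1.60 (without sgCda replicate 3) to -0.12 (without sgNT replicate 4), and it was -0.060 with the replicate block. It spread more widely than any of the 10 members.

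Among inhibitors of cathepsins (cystatins, stefins and relatives), 7 of 11 passed the filter, with 6 fold changes above 0 and a median of 0.017. Of the 8 genes for cathepsin maturation and delivery to the lysosome, 2 were above 0 and 6 below (median -0.033). Of 12 genes of the lysosomal membrane and its proton pump, 4 were above 0 (median -0.020), and of 18 other lysosomal hydrolases 5 were above 0 and 13 below (median -0.036, from -0.16 to 0.081). The 3 lysosomal transcription factors lay between -0.010 and 0.019, and 9 tested genes of the list of substrates and partners between -0.99 and 0.46. In none of these 6 lists did a gene reach an unadjusted p under 0.05, where 2.50% of all genes did.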

How the data were processed

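RNA-seq of 10 s.c. tumors (5 sgNT, 5 sgCda) was analysed, with groups and replicate numbers taken from the sample titles. The authors extracted RNA with TRIzol, selected polyadenylated RNA, made stranded libraries, read the first bases of each fragment, aligned them to GRCm38 (mm10) with TopHat and Bowtie, and counted genes with HTSeq. The strand setting and the annotation release are not given in the sources used here. Per the submitters' processing notes, FastQC 0.11.5 was also used. The deposited values are whole gene counts that the authors did not normalize; 5 summary lines that name no gene were left out of library sizes and tests, and the largest of them, reads outside genes, made 10.3% to 18.4% of reads assigned, outside genes or ambiguous. HTSeq leaves out reads shared by several places or genes.

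Genes were filtered with filterByExpr (minimum count 10, minimum total 15), scaled by TMM and compared by edgeR's quasi-likelihood test (edgeR 4.0.16, R 4.3.3) over all 10 tumors, with Benjamini-Hochberg adjustment over all 15299 genes tested and a threshold of 0.05. Standard errors were computed from each fold change and F value. Log2 CPM used a prior count of 2. Lengths, positions and overlaps came from GENCODE (GRCm38). Depth was 28051907 to 39484964 counts per tumor, and floors of 3 counts cover counting error only, while the 95% intervals of fold changes include the spread between tumors. No 2 libraries were alike within sampling noise. The test was tested on simulated data. Alternatives were DESeq2 size factors and Wald test (DESeq2 1.42.0), library totals, a filter of 1 count in any tumor or 10 in every tumor, limma-voom (limma 3.58.1), the replicate block, a prior count of 0.5, other gene lengths and removal of each tumor. Spreads and ratios without sgCda replicates 3 or 4 were added after seeing the data. Named genes were the 10 members, Cda, the other cathepsins, pathway genes with an unadjusted p under 0.05 or groups that do not overlap, and, for the 4 members of largest SD, the 3 genes with the steadiest ratio. The members and lists were chosen with earlier results of these data known, and Neu1, Glb1, Col1a2 and the single fibroblast and osteoclast markers were named after their values were seen.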

Additional observations from a re-analysis of the deposited data

Results flagged for a closer look

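The Ctsc level of sgCda replicate 3 lay far from the other 4 sgCda tumors, at 10.31 log2 CPM against 9.04 to 9.27. The gap took more of the range of the group than Dixon's 95% limit for 5 samples allows (0.823 against 0.71). It was the 1 such value among 30 groups of 5 tumors examined, where about 1.5 are expected by chance.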

How the results depend on the processing

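No cathepsin or pathway gene passed an adjusted p under 0.05 in any of the 18 alternatives, and the smallest adjusted p of a member was 0.8185. Fold changes near 0 changed sign readily, in 36 of 180 fits of the 10 members, and the cause was not tested. With a filter of 1 count in any tumor, Ctsa was at -0.0092 and Ctsb at -0.012 (log2), and with limma-voom Ctsb was at -0.0080 and Ctsd at -0.0092. The replicate numbers did not pair the tumors (correlations of same-numbered tumors -0.427 to 0.343, 2 of 5 over 0.1; 2 of 5 sgNT and 1 of 5 sgCda tumors correlated best with their own number). With the replicate block, Ctsb was at -0.0042 and Ctsd at -0.0056, no other member changed sign, 0 of 10 cathepsins passed and 325 genes had an unadjusted p under 0.05, against 382. Without both sgCda tumors 3 and 4, chosen after seeing the data, Ctsc was at -0.22, Ctsh at 0.040, Ctsl at 0.0095 and Ctsw at -0.13. In that fit Ctsd kept its sign but was at 0.17 (edgeR unadjusted p = 0.0926, the smallest of any member over the alternatives). Ctso was at 0.14. Over fits without 1 tumor the log2 fold change ran from -0.019 to 0.053 for Ctsa, -0.075 to 0.090 for Ctsb, -0.25 to 0.17 for Ctsc, -0.074 to 0.12 for Ctsd, -0.16 to 0.037 for Ctsh, -0.45 to 0.43 for Ctsk, -0.12 to 0.050 for Ctsl, -0.044 to 0.12 for Ctso, -0.15 to 0.30 for Ctsw and -0.040 to 0.11 for Ctsz. Ctss, Ctsf, Ctse, Ctsg and Cda kept their sign in the fits run for them, with Ctsg between -1.60 and -0.060. Over all genes, the count at an unadjusted p under 0.05 was 830 of 26302 tested with the filter of 1 count. It was 747 of 15377 without sgCda replicate 3, against 382 of 15299 in the main fit. The genes with the steadiest ratio to Ctsk, Ctsw, Ctsc and Ctsh were the same 12 with a prior count of 0.5.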
